A study of Mus musculus with 9 samples.

Results

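The Hox genes and the 3 Cdx genes of the mouse were examined in differentiating embryoid bodies (EBs) exposed to nano- or ionic silver. The members were chosen by name, as all genes of the HoxA, HoxB, HoxC and HoxD clusters together with Cdx1, Cdx2 and Cdx4. This gave 42 genes, of which 39 (36 Hox and 3 Cdx) had a probe set naming them alone, out of 22180 genes with such a probe set on the array. Hoxa11 and Hoxd4 lay only on probe sets shared with a neighbour, and 1 further gene of the HoxA cluster is not analysed here. The measured genes numbered 9 in HoxA, 10 in HoxB, 9 in HoxC and 8 in HoxD.

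The study compared the toxicity of silver nanoparticles (AgNPs) with that of the silver ion in cells leaving pluripotency. A single C57BL/6 mouse embryonic stem cell (mESC) line was differentiated into EBs in hanging drops without leukemia inhibitory factor, and from day 3 the EBs were kept for another 24 h without silver (control), with citrate-coated 20 nm AgNPs at 5.0 µg/ml, or with Ag+ from silver acetate at that same concentration. Each of the 3 groups had 3 biological replicates, hence 9 Affymetrix Mouse Gene 2.0 ST arrays, all of RNA from whole EBs of that 1 line. A signal below is the log2 value that the authors deposited, and a difference is a difference between group means on that scale.

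Hox genes encode homeodomain transcription factors that assign position along the head-to-tail axis. Within a cluster the genes are switched on in the order in which they lie on the chromosome, from paralog group 1 at the anterior end toward group 13, and paralogs of the same number in different clusters resemble each other most. Retinoic acid, Wnt and FGF signals start this sequence in the embryo, and the Cdx proteins, themselves homeodomain factors of the posterior embryo, bind Hox loci and act on the genes in the middle of the clusters. Hox proteins of the anterior groups bind DNA together with Pbx and Meis partners at a bipartite site, and Hoxb1 is known for a loop in which its own protein, with Pbx, acts on its own gene through such sites in hindbrain cells.

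The sequences just ahead of the transcription start are shown for Hoxb1 and Hoxa2, which had the largest and the third largest difference between Ag+ and control EBs among the members, and for Hoxd1, the paralog of Hoxb1, which did not have a positive one. No sequence was given in the table for Hoxb3, whose difference ranked between them. Each is the RefSeq sequence (build GRCm38.p6) of the 250 bases before the start, 5′ to 3′ on the strand of the gene, and the capitals mark a match to the bipartite Hox and Pbx motif TGATNNAT on either strand. Hoxb1 lies on the forward strand of chromosome 11 (chr11:96365508-96365757), Hoxa2 on the reverse strand of chromosome 6 (chr6:52164832-52165081) and Hoxd1 on the forward strand of chromosome 2 (chr2:74762730-74762979). The gene coordinates used for the members start Hoxb1 at 96365746, inside its window. Positions in Hoxb1 thus depend on the start that the window assumes.
Hoxb1: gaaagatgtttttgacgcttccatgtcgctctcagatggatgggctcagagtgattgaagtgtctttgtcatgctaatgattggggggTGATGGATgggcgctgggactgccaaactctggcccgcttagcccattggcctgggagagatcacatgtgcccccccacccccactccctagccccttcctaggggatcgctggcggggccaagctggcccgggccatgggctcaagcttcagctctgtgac
Hoxa2: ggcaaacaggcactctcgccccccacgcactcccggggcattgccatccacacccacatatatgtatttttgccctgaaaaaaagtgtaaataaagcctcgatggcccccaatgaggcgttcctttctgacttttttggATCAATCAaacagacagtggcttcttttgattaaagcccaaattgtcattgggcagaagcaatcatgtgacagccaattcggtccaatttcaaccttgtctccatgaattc
Hoxd1: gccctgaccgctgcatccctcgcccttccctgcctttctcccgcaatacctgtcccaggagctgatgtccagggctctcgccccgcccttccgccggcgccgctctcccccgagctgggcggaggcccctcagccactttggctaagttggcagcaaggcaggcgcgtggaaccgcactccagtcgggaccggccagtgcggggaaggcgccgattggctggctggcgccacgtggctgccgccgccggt
Counted from the start, with -1 as the last base before it, the match lay at -162 to -155 in Hoxb1, in the direction of the gene, and at -111 to -104 in Hoxa2, on the opposite strand. Hoxa2 was thus marked by the reverse complement of the motif. The window of Hoxd1 held none, and it was the richest of these windows in G and C, at 71.6% against 59.2% for Hoxb1 and 46.4% for Hoxa2.

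Promoter windows were given for 24 of the 42 genes, in 26 windows. TGATNNAT was found in 4 of them (15.4%), those of Hoxb1, Hoxa2, Hoxb8 and Hoxd11, and in 7.68% of all 32851 mouse windows of the same length. The Cdx motif TTTATG was found in 5 (19.2%, against 10.8% of all windows), and the retinoic acid receptor half-site AGGTCA in 6 (23.1%, against 14% of all). Direct repeats of that half-site with the spacing of the DR2 and DR5 retinoic acid response elements were found in 0 of the 26 and in 0.00913% of all windows each. A match of these letters is not a shown binding site. The genes with TGATNNAT had log2 differences between Ag+ and control EBs of 1.04 (Hoxb1), 0.60 (Hoxa2), 0.55 (Hoxb8) and 0.01 (Hoxd11). A link between the motif and the difference was not tested.

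Most members gave a low signal. The mean over 9 arrays ran from 3.46 (Hoxc5) to 7.41 (Hoxb1), where the quartiles of all named probe sets were 3.72, 5.06 and 6.83. Only Hoxb1 and Cdx2 lay above the upper quartile, 12 members had a mean of at least 5, and 27 lay under it. On 10 of the 39 probe sets (25.6%), 3 or more arrays held exactly the same deposited value, against 34.3% of all named probe sets. Arrays of a group correlated at 0.994 to 0.996 over all named probe sets and arrays of different groups at 0.991 to 0.996, and no pair was identical. Control replicate 3 and AgNP replicate 1 lay at opposite ends of the second principal component. The label calls the material embryonic stem cells, and markers of that state differed in signal. On the log2 scale Nanog ran from 6.71 to 9.02 and Sox2 from 6.99 to 8.20 over the 9 arrays. Pou5f1 ran from 5.75 to 6.37, Klf4 from 5.25 to 6.05, Tfcp2l1 from 4.81 to 5.50 and Zfp42 from 4.65 to 5.33. Esrrb did not exceed 4.64 and Dppa3 did not exceed 4.29.

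In the EBs exposed to Ag+, Hoxb1 and Hoxb3 were higher than in the controls, and these were the members called by limma after Benjamini-Hochberg adjustment over 25341 probe sets (adjusted p under 0.05). They were 2 of the 39 members, where 0.813% of all probe sets were called higher. With a block on replicate number, limma called 6 members higher (Hoxa2, Hoxb1, Hoxb2, Hoxb3, Hoxb8 and Cdx2). The share of all probe sets called with the block was not counted, so this number has no background beside it. The methods' t-test after adjustment called 0 members (adjusted p = 0.43 for Hoxb1 and 0.54 for Hoxb3) and 0 of all probe sets. None was called lower by limma, where 1.47% of all were. At an unadjusted p under 0.05 in the limma fit without the block, 9 members were higher (5.82% of all probe sets) and 1, Hoxd9, was lower (7.95% of all). Past 1.5-fold at that unadjusted p were 3 members higher (Hoxa2, Hoxb1 and Hoxb3, where 0.572% of all were) and 0 lower (1.1% of all). Across all members 31 of 39 differences were above 0 (79.5%, against 48.9% of all named probe sets), with a median of 0.08 on the log2 scale, against -0.0036 for all named probe sets. The RNA came from whole EBs, so that a change in the share of cells expressing a gene and a change in its RNA per cell cannot be told apart.

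Hoxb1, the gene at the anterior end of the HoxB cluster, needed for the identity of the fourth hindbrain segment, gave log2 signals of 6.67, 6.90 and 7.07 on the control arrays, 7.24, 7.39 and 7.69 on the AgNP arrays and 7.77, 8.04 and 7.95 on the Ag+ arrays. The 3 groups did not overlap, and the AgNP arrays lay between the others. The hindbrain roles named here and below are those in the embryo. Which cells of the EBs gave the signal was not tested. The signal was 2.06-fold higher with Ag+ than in controls, a log2 difference of 1.04 (SE 0.14, 95% interval 0.74 to 1.35, limma adjusted p = 0.0044). With AgNP the log2 difference was 0.56 (SE 0.14, interval 0.26 to 0.87, limma adjusted p = 0.29), so that the interval of this single gene lay above 0 while the adjusted p did not pass.

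Hoxb3, a regulator of hindbrain and neural tube pattern, gave log2 signals of 5.01, 5.10 and 5.06 in controls, 5.33, 5.45 and 5.68 with AgNP and 5.61, 5.73 and 5.93 with Ag+. The control arrays were the lowest and lay close together, and AgNP replicate 3 lay above Ag+ replicate 1. The Ag+ signal was 1.62-fold the control signal, a log2 difference of 0.70 (SE 0.10, interval 0.47 to 0.94, limma adjusted p = 0.0084), and the AgNP difference was 0.43 (interval 0.20 to 0.67, limma adjusted p = 0.29). A second probe set, which names Hoxb3 and Hoxb2 together and belongs to neither alone, gave 6.51, 6.56 and 6.50 in controls, 6.28, 6.77 and 7.03 with AgNP and 7.01, 7.31 and 7.30 with Ag+. Its Ag+ arrays lay above all controls and its log2 difference was 0.68 (limma adjusted p = 0.079).

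Hoxb2, which lies between them in the cluster and also acts in the hindbrain, gave log2 signals of 4.92, 5.09 and 5.11 in controls, 4.67, 5.01 and 5.10 with AgNP and 5.26, 5.45 and 5.59 with Ag+. The Ag+ arrays lay above all others, while AgNP and control arrays overlapped. The Ag+ difference was 0.39 (SE 0.12, limma adjusted p = 0.19) and the AgNP difference -0.11 (limma adjusted p = 0.81). Every measured gene of HoxB had an Ag+ difference above 0 (10 of 10, median 0.28), but the size fell off unevenly along the cluster. The values were 0.16 for Hoxb4, 0.20 for Hoxb5, 0.00 for Hoxb6 and 0.05 for Hoxb7, then 0.55 for Hoxb8, 0.33 for Hoxb9 and 0.22 for Hoxb13, none of them called.

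Hoxb8 was singled out after its values were seen. Its log2 signals were 4.05, 3.88 and 4.46 in controls, 4.37, 4.25 and 4.59 with AgNP and 4.59, 4.53 and 4.91 with Ag+. The Ag+ arrays lay above the controls but control replicate 3 was within 0.1 of Ag+ replicate 2, and the difference of 0.55 had a limma adjusted p of 0.15. Without control replicate 3, Hoxb8 joined Hoxb1 and Hoxb3 among the called members, which then numbered 3. The share of all probe sets called without that array was not counted.

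**Figure D1:**
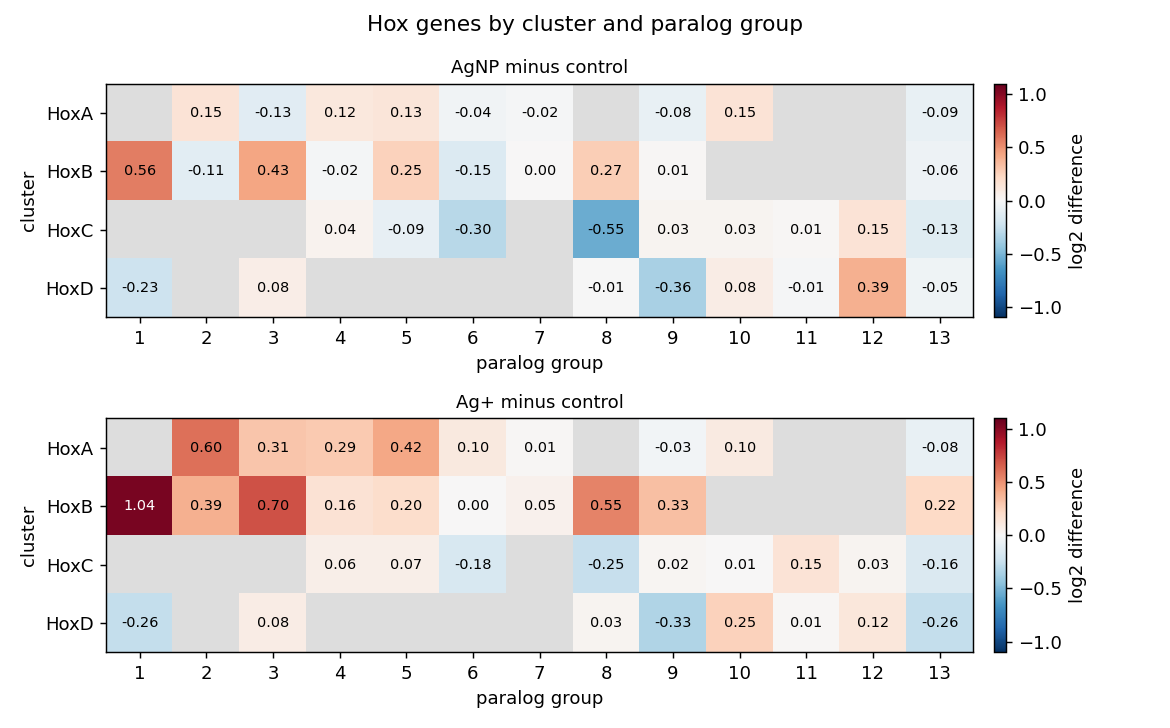
Log2 difference from the control mean for each measured Hox gene, with clusters as rows and paralog groups as columns, for AgNP (upper) and Ag+ (lower). Grey marks positions with no gene or no probe set of its own. The 3 largest Ag+ values are 1.04 for Hoxb1, 0.70 for Hoxb3 and 0.60 for Hoxa2, followed by 0.55 for Hoxb8 and 0.42 for Hoxa5, while HoxC and HoxD hold values of both signs.

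In the HoxA cluster the Ag+ differences were graded from the anterior end. They were 0.60 for Hoxa2, 0.31 for Hoxa3, 0.29 for Hoxa4 and 0.42 for Hoxa5, then 0.10 for Hoxa6, 0.01 for Hoxa7, -0.03 for Hoxa9, 0.10 for Hoxa10 and -0.08 for Hoxa13. As a description across the 9 genes, the rank correlation of paralog number with the difference was -0.90 (Spearman). The genes share the same 6 arrays and most have a signal under 5, and the corresponding values were -0.38 over 10 genes of HoxB, -0.08 over 9 of HoxC and 0.02 over 8 of HoxD.

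Hoxa2, the Hox gene expressed farthest forward in the hindbrain and a selector of the second branchial arch, gave log2 signals of 4.56, 4.81 and 4.87 in controls, 4.84, 4.88 and 4.96 with AgNP and 5.03, 5.50 and 5.52 with Ag+. The Ag+ arrays lay above all others, with replicate 1 close to the AgNP arrays. The signal was 1.52-fold higher with Ag+ than in controls (log2 difference 0.60, SE 0.13, interval 0.30 to 0.90), which narrowly missed the threshold (limma adjusted p = 0.054). Without Ag+ replicate 1 the difference was 0.76 (limma adjusted p = 0.0086), and over 19 alternative settings the adjusted p ran from 0.0086 to 0.68.

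Hoxa3, which acts in the third pharyngeal arch, gave log2 signals of 3.38, 3.51 and 3.51 in controls, 3.24, 3.51 and 3.27 with AgNP and 3.58, 4.22 and 3.52 with Ag+. The Ag+ difference of 0.31 (limma adjusted p = 0.46) rested mainly on replicate 2, and without any single array it ran from 0.09 to 0.44. The probe set that names Hoxa3 together with an uncharacterized transcript had an Ag+ difference of 0.30 (limma adjusted p = 0.23). Hoxa4 gave 5.66, 5.71 and 5.68 in controls and 5.97, 6.11 and 5.86 with Ag+, without overlap, and its difference of 0.29 had a limma adjusted p of 0.11.

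**Figure D2:**
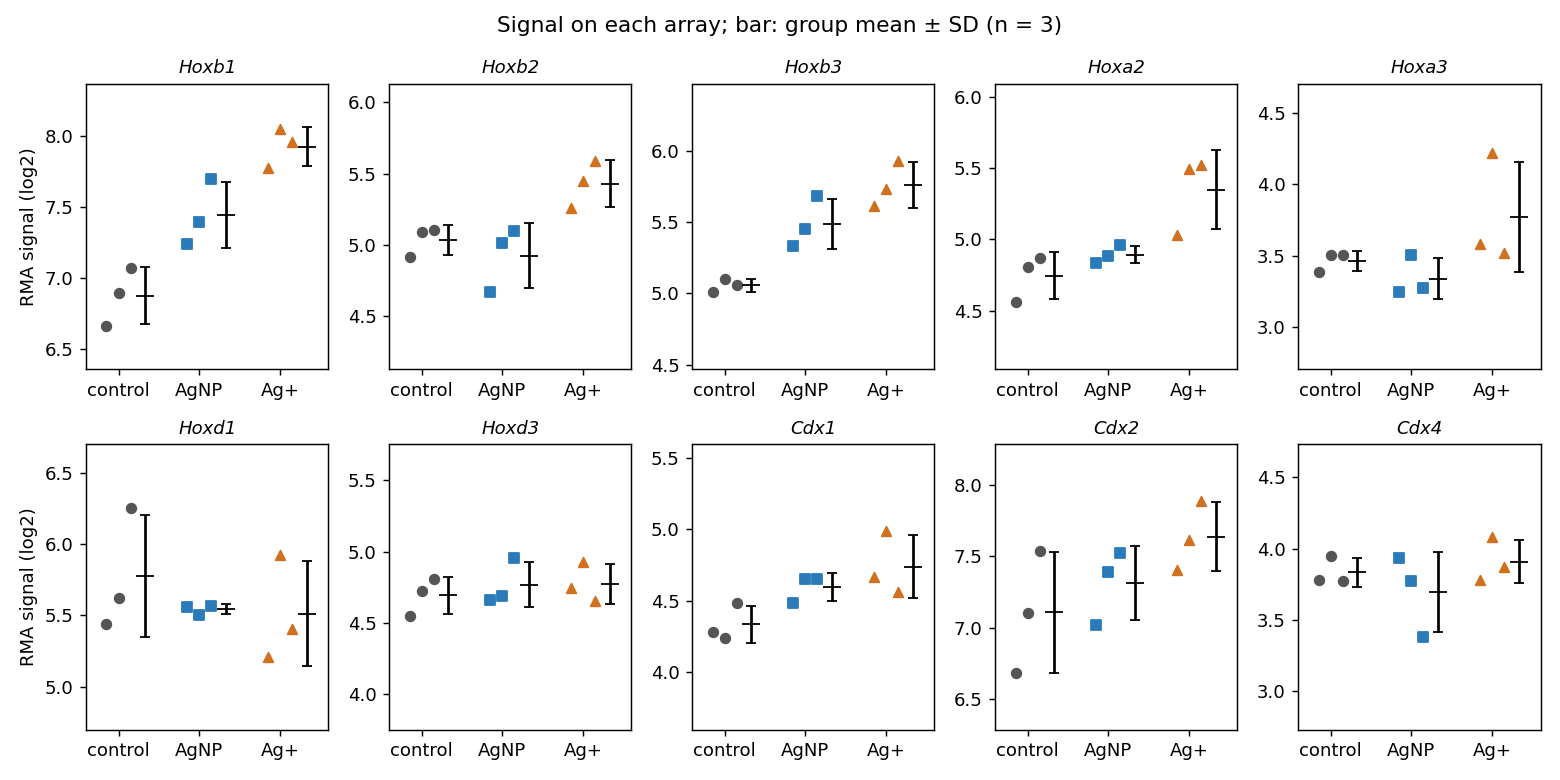
RMA signal (log2) on each of the 9 arrays for the measured Hox genes of paralog groups 1 to 3 and the Cdx genes, with the group mean and SD (n = 3) beside the points. Each panel spans the same log2 range. The 3 groups do not overlap for Hoxb1, the controls lie below the exposed arrays for Hoxb3, and the groups overlap for Hoxd1 and Hoxd3.

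The HoxC and HoxD clusters gave no called member in any comparison. In HoxC the Ag+ differences ran from -0.25 (Hoxc8) to 0.15, with a median of 0.02. Hoxc13 was the member whose 3 Ag+ arrays all lay below the controls, by 0.16 on average (limma adjusted p = 0.40). In HoxD the median was also 0.02. Hoxd1 gave log2 signals of 5.44, 5.62 and 6.26 in controls, 5.56, 5.50 and 5.57 with AgNP and 5.21, 5.92 and 5.40 with Ag+. Control replicate 3 was the highest array and the groups overlapped. Its Ag+ difference of -0.26 had an interval of -0.76 to 0.23 (limma adjusted p = 0.64), wholly below that of its paralog Hoxb1. Without any single array it ran from -0.47 to -0.02.

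Hoxd3, the paralog of Hoxb3, gave log2 signals of 4.55, 4.72 and 4.81 in controls, 4.66, 4.69 and 4.95 with AgNP and 4.74, 4.93 and 4.65 with Ag+. The groups overlapped, and the Ag+ difference was 0.08 (interval -0.16 to 0.32, limma adjusted p = 0.79). Differences between paralogs were not tested. Hoxd9, singled out after its values were seen, gave 3.80, 4.14 and 4.27 in controls, 3.50, 3.76 and 3.88 with AgNP and 3.72, 3.86 and 3.64 with Ag+. Control replicate 1 lay within the range of the exposed arrays, and the differences were -0.36 with AgNP (limma adjusted p = 0.51) and -0.33 with Ag+ (limma adjusted p = 0.31).

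By paralog group, the median Ag+ difference was 0.39 over the 7 measured genes of groups 1 to 3 (6 above 0), 0.07 over the 14 of groups 4 to 8 (12 above 0) and 0.02 over the 15 of groups 9 to 13 (10 above 0). Counted without a test, the Ag+ arrays lay wholly above the controls for 11 of the 39 members, where 6.99% of all probe sets did so, and wholly below for 1, where 9.51% did. These 11 were Hoxa2, Hoxa3, Hoxa4, Hoxb1, Hoxb2, Hoxb3, Hoxb8, Hoxb13, Hoxd10, Hoxd12 and Cdx1, and 5 of them belong to paralog groups 1 to 3. Hoxd12 enters with a difference of 0.12 because all 3 Ag+ arrays held the same value of 3.94, so that it is a separation without measurable spread.

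The Cdx genes, which act in the extension of the trunk and tail of the embryo, all had an Ag+ difference above 0. None was called without a block on replicate number. Cdx2 gave log2 signals of 6.68, 7.10 and 7.53 in controls, 7.02, 7.39 and 7.52 with AgNP and 7.41, 7.61 and 7.89 with Ag+. Its controls spread over more than the difference between the group means, and control replicate 3 lay above Ag+ replicate 1. The Ag+ difference was 0.53 (SE 0.22, interval 0.04 to 1.02, limma adjusted p = 0.32), and without any single array it ran from 0.32 to 0.74. With a block on replicate number its limma adjusted p was 0.024.

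Cdx1 gave log2 signals of 4.28, 4.24 and 4.49 in controls, 4.49, 4.66 and 4.66 with AgNP and 4.67, 4.99 and 4.56 with Ag+. All Ag+ arrays lay above the controls, and the lowest AgNP array was level with the highest control. The differences were 0.40 with Ag+ (SE 0.12, limma adjusted p = 0.14) and 0.26 with AgNP (limma adjusted p = 0.59). Cdx4 gave 3.78, 3.95 and 3.77 in controls, 3.93, 3.77 and 3.38 with AgNP and 3.78, 4.08 and 3.87 with Ag+. These groups overlapped throughout, and the differences were 0.08 with Ag+ (limma adjusted p = 0.85) and -0.14 with AgNP (limma adjusted p = 0.79).

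**Figure D3:**
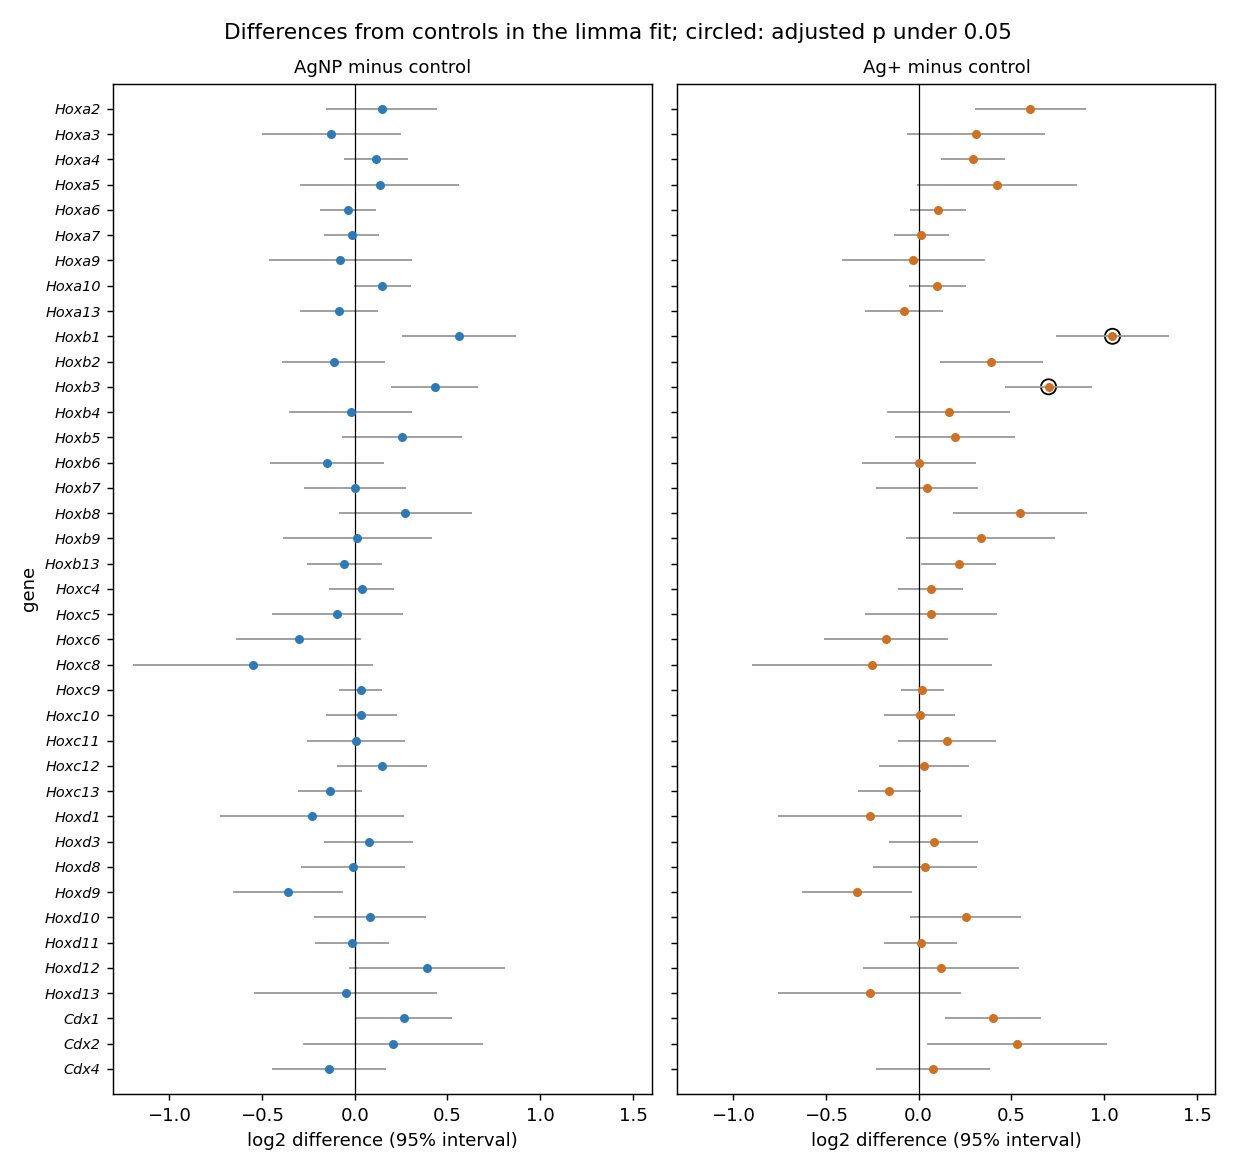
Log2 difference from controls with its 95% interval in the limma fit for all 39 members, for AgNP (left) and Ag+ (right), grouped by cluster. Circles mark an adjusted p under 0.05. Hoxb1 and Hoxb3 with Ag+ are the circled genes, and no member is circled with AgNP.

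AgNP at the same nominal dose gave no called member in either direction by limma (0 of 39), where 0.0355% of all probe sets were called higher and 0.0513% lower. The methods' t-test after adjustment also called 0. At this dose the paper reports more cell death in EBs with Ag+ than with AgNP in its viability assay. In its flow cytometry at this dose, apoptotic cells and mitochondrial superoxide rose with AgNP and did not change significantly with Ag+. The paper also describes outer cells falling off the EBs at lower concentrations of Ag+, and only part of the AgNP silver as ions after 24 h. The part of these toxic effects in the differences was not tested. At an unadjusted p under 0.05 in the limma fit, 3 members were higher (Hoxb1, Hoxb3 and Cdx1), where 4.01% of all were, and 1 was lower (Hoxd9), where 4.44% of all were. The AgNP arrays lay wholly above the controls for 4 members, Hoxa4, Hoxb1, Hoxb3 and Hoxd12, where 4.84% of all did, and wholly below for 0, where 6.09% of all did. Over all members 20 differences were above 0 (51.3%, against 46.9% of all named probe sets) and 19 below. Their median was 0.002, against -0.008 for all named probe sets. Medians by cluster were -0.02 in HoxA, 0.01 in HoxB, 0.01 in HoxC and -0.01 in HoxD. The 29 members not given in full ran from -0.55 (Hoxc8) to 0.39 (Hoxd12), with no adjusted p under 0.51.

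Both ends of that range rested on uneven arrays. Hoxc8 gave log2 signals of 5.22, 5.73 and 6.15 in controls and 4.89, 4.99 and 5.58 with AgNP. Its controls spanned more than the difference, and the groups overlapped. Hoxd12 gave 3.94, 4.75 and 3.94 with AgNP, so that AgNP replicate 2 alone stood apart from an otherwise shared value. Both were chosen after their values were seen.

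AgNP and Ag+ were compared directly, although both exposures share the same controls in the comparisons above. No member was called (0 higher, where 0.363% of all probe sets were, and 0 lower, where 0.146% were, by limma), and the methods' t-test after adjustment also called 0. At an unadjusted p under 0.05 in the limma fit, 7 members were lower with AgNP (Hoxa2, Hoxa3, Hoxa4, Hoxb1, Hoxb2, Hoxb3 and Hoxb13), where 3.92% of all were, and 0 were higher, where 4.39% of all were. Past 1.5-fold at that p were 0 members lower, where 0.245% of all were. The AgNP arrays lay wholly below the Ag+ arrays for Hoxa2, Hoxa3, Hoxb1, Hoxb2 and Hoxb13 (5 members, where 5.61% of all did so). For no member did they lie wholly above, where 6.72% of all did. Over all members 30 of 39 differences were below 0, with a median of -0.14. Over all named probe sets 50.2% were above 0, with a median of 0.0004. The median of the members was -0.43 over paralog groups 1 to 3 and -0.004 over groups 9 to 13.

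The largest of these differences was that of Hoxb2, at -0.50 on the log2 scale (SE 0.12, interval -0.78 to -0.23, limma adjusted p = 0.18). It was -0.48 for Hoxb1 (interval -0.79 to -0.17, limma adjusted p = 0.28), -0.46 for Hoxa2 (interval -0.76 to -0.16, limma adjusted p = 0.30) and -0.43 for Hoxa3 (limma adjusted p = 0.51). For Hoxb3 it was -0.27 (interval -0.50 to -0.03, limma adjusted p = 0.52). None of these passed after adjustment in this fit, while Hoxb2 passed with a block on replicate number (limma adjusted p = 0.025). The intervals did not show the responses to AgNP and Ag+ to be alike. The Cdx genes gave -0.14 for Cdx1, -0.33 for Cdx2 and -0.21 for Cdx4, with every interval including 0.

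**Figure D4:**
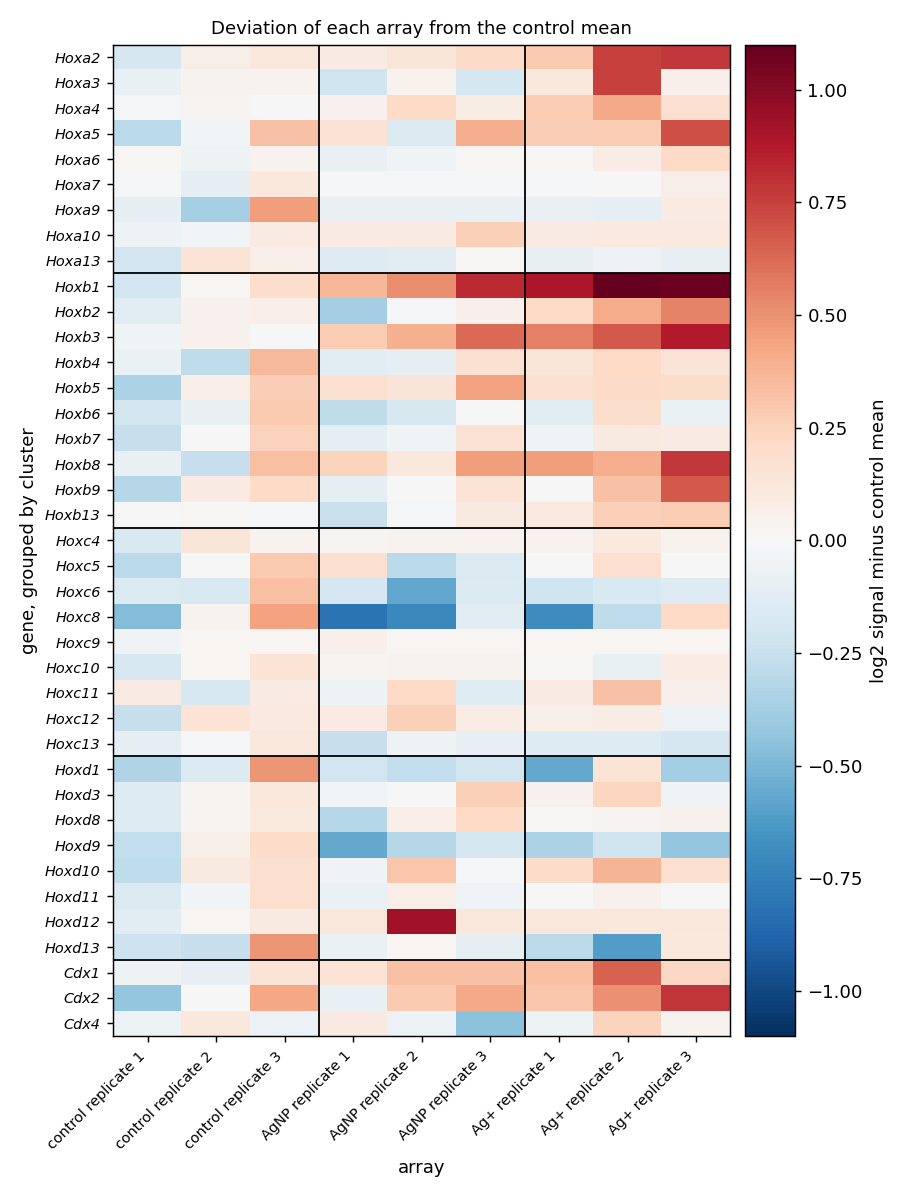
Signal of each of the 39 members on each of the 9 arrays, minus the control mean of that gene (log2, colour), with genes grouped by cluster. Control replicate 1 is blue and control replicate 3 red for most members, and Hoxb1 and Hoxb3 are red on all 3 Ag+ arrays.

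The Hox and Cdx genes also varied between arrays of the same group. Control replicate 3 was the highest control for 29 of the 39 members (31.7% of all named probe sets), and control replicate 1 the highest for 0 (30% of all). Control replicate 1 was the lowest control for 28 members (34% of all), AgNP replicate 1 the lowest AgNP array for 24 (32.7% of all) and Ag+ replicate 1 the lowest Ag+ array for 21 (27.6% of all). The median deviation of the members from the control mean was -0.16 for control replicate 1, 0.02 for control replicate 2 and 0.15 for control replicate 3, a span wider than the median Ag+ difference of 0.08. The median SD of a member was 0.17 in controls, 0.14 with AgNP and 0.11 with Ag+, against 0.10, 0.09 and 0.09 over all named probe sets. Without control replicate 3 and AgNP replicate 1, Hoxb1 (1.14, limma adjusted p = 0.01) and Hoxb3 (0.70, limma adjusted p = 0.037) were the called members.

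Other genes of the same pathways were read from lists. Of the TALE homeodomain partners of Hox proteins (Pbx, Meis and Pknox genes), 1 of 8 measured was higher with Ag+ and 0 lower, and 0 were called with AgNP. The list median with Ag+ was 0.01. Pknox2, one of the Prep genes, gave log2 signals of 6.16, 6.10 and 6.02 in controls, 6.29, 6.21 and 6.36 with AgNP and 6.60, 6.54 and 6.75 with Ag+. The groups did not overlap, and the Ag+ difference was 0.54 (SE 0.07, limma adjusted p = 0.0056). Of the RNAs transcribed within the clusters, 0 of 7 were called in any comparison, and the largest Ag+ difference was 0.58 for Hoxaas3, a noncoding RNA of the HoxA cluster (limma adjusted p = 0.36). Of the homeobox genes beside the Hox clusters and of the ParaHox genes other than Cdx, 1 of 5 was lower with Ag+ and 0 higher. That was Evx1, which lies beyond the posterior end of HoxA and is expressed in the primitive streak, at -0.63 (limma adjusted p = 0.0082).

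Among the regulators that act upstream of Hox and Cdx genes, 2 of 16 were higher with Ag+ and 1 lower, with a list median of -0.06, and 0 were called with AgNP. Aldh1a2, the enzyme that makes retinoic acid in early mesoderm, gave log2 signals of 6.27, 6.57 and 7.11 in controls, 7.22, 7.97 and 8.38 with AgNP and 8.52, 8.87 and 9.26 with Ag+. The 3 groups did not overlap and stood in the same order as for Hoxb1. That order was not particular to these genes, as Dll1 and Tbx6, both paraxial mesoderm markers, had it too. The Ag+ difference was 2.23 (SE 0.31, limma adjusted p = 0.0061) and the AgNP difference 1.21 (limma adjusted p = 0.33). Cyp26a1, which breaks retinoic acid down, had an Ag+ difference of -0.93 (limma adjusted p = 0.061). The retinoic acid receptor genes Rara, Rarb and Rarg had Ag+ differences of -0.08, 0.15 and -0.02, none of them called. The part of retinoic acid in the Hoxb1 signal was not tested.

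The Wnt ligands of the streak went opposite ways with Ag+. Wnt3a was higher by 0.45 (limma adjusted p = 0.03). Wnt3 was lower by a difference of -0.84 (limma adjusted p = 0.0039), and it was higher with AgNP than with Ag+ (0.74, limma adjusted p = 0.024). Of the Polycomb and Trithorax genes, which keep Hox loci silent or active, 0 of 22 were higher with Ag+ and 1 was lower. That was Kdm6b, which removes the Polycomb mark from histone H3, at -0.44 (limma adjusted p = 0.0062).

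Markers of several cell types in the EBs also differed with Ag+. Their lists were chosen with earlier results of these data known, so the counts are a description and not an independent test. Of all probe sets, 0.813% were called higher with Ag+ and 1.47% lower. Of the paraxial mesoderm markers 10 of 10 were higher, with a median difference of 1.25. A summed signal is the log2 of the sum of the unlogged signals of a list, in which the strongest genes weigh most. For the paraxial list it was 9.43 to 9.62 in controls, 9.96 to 10.3 with AgNP and 10.7 to 10.9 with Ag+. Of the lateral and extraembryonic mesoderm markers 8 of 8 were lower, with a median of -2.09 and summed signals of 10.9 to 11.6, 10.03 to 10.6 and 9.32 to 9.39 in the same order. Of the visceral endoderm markers 6 of 10 were lower, with a median of -0.89 and summed signals of 10.6 to 10.9, 10.4 to 10.8 and 9.15 to 9.36. Of the posterior neural plate markers 2 of 9 were higher, Irx3 by 0.74 and Nkx1-2 by 0.99, while the list median was 0.06. Egr2, also on this list, had an Ag+ difference of -0.03 (limma adjusted p = 0.93). Their summed signals were 8.70 to 8.77, 8.92 to 9.03 and 9.09 to 9.30.

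With AgNP, 1 paraxial marker was called higher (Dll1) and 1 lateral marker lower (Tbx20), and the summed signals of the paraxial and lateral lists lay between those of controls and Ag+ without overlap. Of the 7 primitive streak and nascent mesoderm markers, 2 were higher with Ag+ (Tbx6 and Msgn1, both also on the paraxial list) and 2 lower (Eomes and Evx1), with summed signals of 10.7 to 11.0 in controls and 10.2 to 10.7 with Ag+. Of the 8 pluripotency markers 1 was lower (Klf4), with overlapping summed signals. The part of these cell types in the higher Hoxb1 and Hoxb3 signal was not tested.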

How the data were processed

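RNA of 9 EB samples (3 unexposed, 3 AgNP, 3 Ag+) was hybridized to Mouse Gene 2.0 ST arrays. The authors summarized probes by robust multi-array average (RMA: convolution background correction, quantile normalization, median polish) in Expression Console 1.3 and deposited log2 signal values, which were used unchanged. The number of arrays, 3 per group, limits the precision, and quantile normalization removes any shift common to all genes. Probe sets were named from the platform annotation: 25341 were named (23521 with 1 gene, 1820 with several) and 16004 of 41345 were not. A gene was read from the probe set naming it alone with the highest mean over 9 arrays. Groups came from the labels.

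The 3 group means were fitted to all 9 arrays (limma 3.58.1 in R 4.3.3, lmFit and eBayes). P-values were adjusted by the Benjamini-Hochberg method over all 25341 named probe sets, with a threshold of 0.05. The fit was also run on simulated data with independent noise. Deviations shared between genes of an array, as seen for these members, were not simulated. The replicates are labelled biological, so p-values measure their spread within 1 cell line. Whether the replicates came from 1 run of the experiment or from several is not known here. The study's own selection used an analysis of variance with fold and unadjusted p thresholds, and the methods' t-test and 1.5-fold thresholds were run as alternatives beside other scalings, filters, probe set rules, array weights, a block on replicate number and each array left out in turn.

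Per-array values were given for members called in any comparison, for those past 1.5-fold at an unadjusted p under 0.05, for paralog groups 1 to 3 and for the Cdx genes. Others were given by range unless said. The members, the rule and 11 further gene lists (110 of 129 entries measured) were chosen with earlier results of these data known. Promoter windows were taken from RefSeq (GRCm38.p6), matched by symbol. A few genes of the lists are not analysed here.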

Additional observations from a re-analysis of the deposited data

How the results depend on the processing

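Results are for 36 values (6 counts of called members and the differences of 10 genes in 3 comparisons), recomputed under each alternative. The count of members higher with Ag+ was 2. It was 0 by the methods' t-test after adjustment (adjusted p = 0.43 for Hoxb1 and 0.54 for Hoxb3), which takes its error from the 6 arrays of each gene alone and called 0 of all probe sets in each comparison. At the methods' unadjusted thresholds it was 3, with Hoxa2. Leaving out each array in turn gave 2 to 3 members higher with Ag+ and 0 to 0 for each of the other counts. Hoxb1 and Hoxb3 were called in 19 of 20 alternatives each, with Ag+ differences of 0.94 to 1.14 and of 0.61 to 0.77. Hoxa2 was called in 5 of 19, and the cause was not tested. No called value changed sign.

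Same-numbered arrays of different groups deviated from their group means with correlations of -0.06 to 0.23 over all named probe sets. Of the 9 pairs, 4 were over 0.1. An array correlated best with its own number in 12 of 18 comparisons with another group. Replicate 1 was the lowest array of its group for 28 members in controls, 24 with AgNP and 21 with Ag+. The labels name no shared batch, and the main fit did not pair the samples by number. Whether the number marks a shared batch was not tested, so the fit with the replicate block is given beside it. With the replicate block, 6 members were higher with Ag+ (Hoxa2, Hoxb1, Hoxb2, Hoxb3, Hoxb8 and Cdx2) and 1 was lower with AgNP than with Ag+ (Hoxb2, adjusted p = 0.025). The block left the other counts at 0. Shares of all probe sets called were not counted with the block or with arrays left out, so those member counts have no background beside them. Without control replicate 3 and AgNP replicate 1, an alternative chosen after seeing the data, the count higher with Ag+ was 2. Mean signals under 5 for most members limit what these arrays resolve.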
